A study of Oryctolagus cuniculus with 8 samples.

Results

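Solute carriers are membrane proteins that move amino acids, sugars, ions, nucleosides, vitamins and organic drugs across the plasma membrane or the inner mitochondrial membrane. Some work alone, while others are heterodimers of a heavy chain, which takes the complex to the cell surface, and a light chain, which forms the transport path. In kidney, gut and liver many of them sit on a single face of an epithelium, whereas dividing cells use a smaller set for amino acid, nucleoside and vitamin uptake. The genes described here were all those with a rabbit gene symbol beginning with SLC that a probe of the array named through its RefSeq accession, leaving out SLC2A1. There were 139 such probes of 49 genes, among 43603 probes and 680 named genes. The filter kept 86 probes of 38 genes, those that the scanner's own flag put well above background in both arrays of any group.

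RNA from 8 cultures of Dutch rabbit cells was hybridised to 8 single-colour Agilent arrays, which fell into 4 groups of 2. The embryonic stem (ES) cells were the lines rdES4 and rdES2-1, whose passage was not given in the sources used here. Induced pluripotent stem (iPS) cells came from liver (line iPS-L1, passages 7 and 23) and from stomach (line iPS-S1, passages 6 and 22), so that early and late passage held the same lines. The reprogramming factors and their vector were not given in the sources used here. The somatic group held 1 culture of liver cells and 1 of stomach cells. Stem cell medium was used for the ES and iPS lines and somatic cell medium for the liver and stomach cultures, so medium and cell state cannot be told apart in a comparison with somatic cells. Each tissue gave a single iPS line, and the labels do not say whether cultures came from separate animals, so p-values measure only the spread between these samples.

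A level is the log2 processed signal minus the log2 of that array's 75th percentile, so 0 is the 75th percentile of the array's probes. That percentile was 273.8 to 341.5 signal units on the 6 ES and iPS arrays and 163.8 and 154.8 on the liver and stomach arrays, and the lowest level well above background was -5.54 to -5.36 on the former and -4.53 and -4.65 on the latter. POU5F1 and PODXL, markers of pluripotent cells, were higher in iPS than in somatic cells. ALB and APOA1 were above background on no array, liver cells included. ATP4B, the acid pump's beta subunit, was above background on none either, stomach cells included. ATP4A was above background on the stomach array but not on the liver array, yet it was higher in iPS and ES than in somatic cells. It stood at -4.40 in stomach cells and at -4.05 to -3.61 in iPS cells. PGC, the other tested gastric marker, was above background on all 8 arrays, at -3.95 in liver and -4.08 in stomach cells. All 4 tested fibroblast markers (DCN, MGP, CAV1 and MMP2) and all 3 smooth muscle markers (ACTA2, TPM2 and CALD1) were lower in iPS and in ES cells. The summed level of the fibroblast list was 6.72 to 7.63 in the somatic cultures, 1.06 to 1.65 in iPS cells and 0.91 to 1.14 in ES cells. The leukocyte marker CD14 was lower as well, and of 4 tested hepatocyte genes TF was higher and RBP4 lower. The part of these cell types in the results below was not tested, and in bulk RNA fewer cells of a type and less RNA per cell cannot be told apart.

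Against somatic cells, 10 solute carrier genes were higher and 16 lower in iPS cells, and 12 were not called (limma, Benjamini-Hochberg adjusted p under 0.05 over 28844 probes). The largest falls were in SLC7A5 and SLC3A2, the chains of a large neutral amino acid exchanger, and the largest rises with both groups measured in SLC5A6 and SLC46A1, carriers of vitamins. Over all tested probes 66.6% were called, 34.3% higher and 32.4% lower, and of 509 named genes 67.6% were called, 22.2% higher and 45.4% lower. The 26 of 38 solute carrier genes called are a share close to both backgrounds. The median difference of the 38 genes was -0.50, against 0.02 for all tested probes and -0.61 for the named genes. In ES cells 11 genes were higher, 12 lower and 15 not called, where 64.0% of all probes were called, 34.4% higher and 29.6% lower. Among the 509 named genes these shares were 64.0%, 21.4% and 42.6%. Both comparisons use the same somatic arrays.

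These counts depend on detection and on scaling. The 25 genes well above background on all 8 arrays held 4 of the higher and 14 of the lower calls in iPS cells, beside 66.9% called, 33.2% higher and 33.7% lower, among the 22107 probes detected on all arrays. In ES cells these genes held 5 higher and 12 lower calls, beside 63.8% called, 32.7% higher and 31.1% lower. The other 13 genes held 6 higher and 2 lower calls. In all 6 the somatic arrays gave no signal above background. These genes thus passed the filter only through ES or iPS arrays, which favours genes that are higher there, although SLC36A1 passed in that way and was called lower. Without scaling between arrays, which moved the median of all probes to 1.03, 15 genes were higher and 6 lower. With another background correction (normexp, offset 50), which moved it to -0.40, 3 were higher and 25 lower, and SLC22A8, SLC28A2, SLC3A1, SLC7A9 and SLC47A1 changed sign. The same correction turned SLC22A8, SLC3A1 and, by a small amount, SLC22A3 below 0 in ES cells. In ES cells the same settings gave 17 higher and 6 lower, and 2 higher and 23 lower. For these settings and for the slide block below, the share of all probes called is not given here. Those counts therefore have no background and are no sign of a change particular to solute carriers. The stomach iPS line was the only unit on slide 3. A slide block therefore takes it out of the iPS comparison, which then rests on the liver line alone. With the slide as a block 15 genes were called in iPS cells, 5 higher and 10 lower, and 21 in ES cells. The iPS calls lost were those of SLC12A3, SLC1A1, SLC1A5, SLC25A24, SLC29A2, SLC34A1, SLC36A1, SLC46A1, SLC47A1, SLC47A2 and SLC5A6 (adjusted p from 0.0566 to 0.236), and the ES calls lost those of SLC1A1 and SLC34A1 (adjusted p = 0.0927 and 0.138). All 26 genes called in iPS cells kept their direction on slide 1, which held the liver line and liver cells, and between the stomach line and stomach cells, which lay on different slides. All 23 genes called in ES cells kept theirs on slide 1 (rdES4 and liver cells) and on slide 2 (rdES2-1 and stomach cells). The calls came from these same arrays, so the shared direction was largely set by the calling and adds no separate support.

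**Figure D1:**
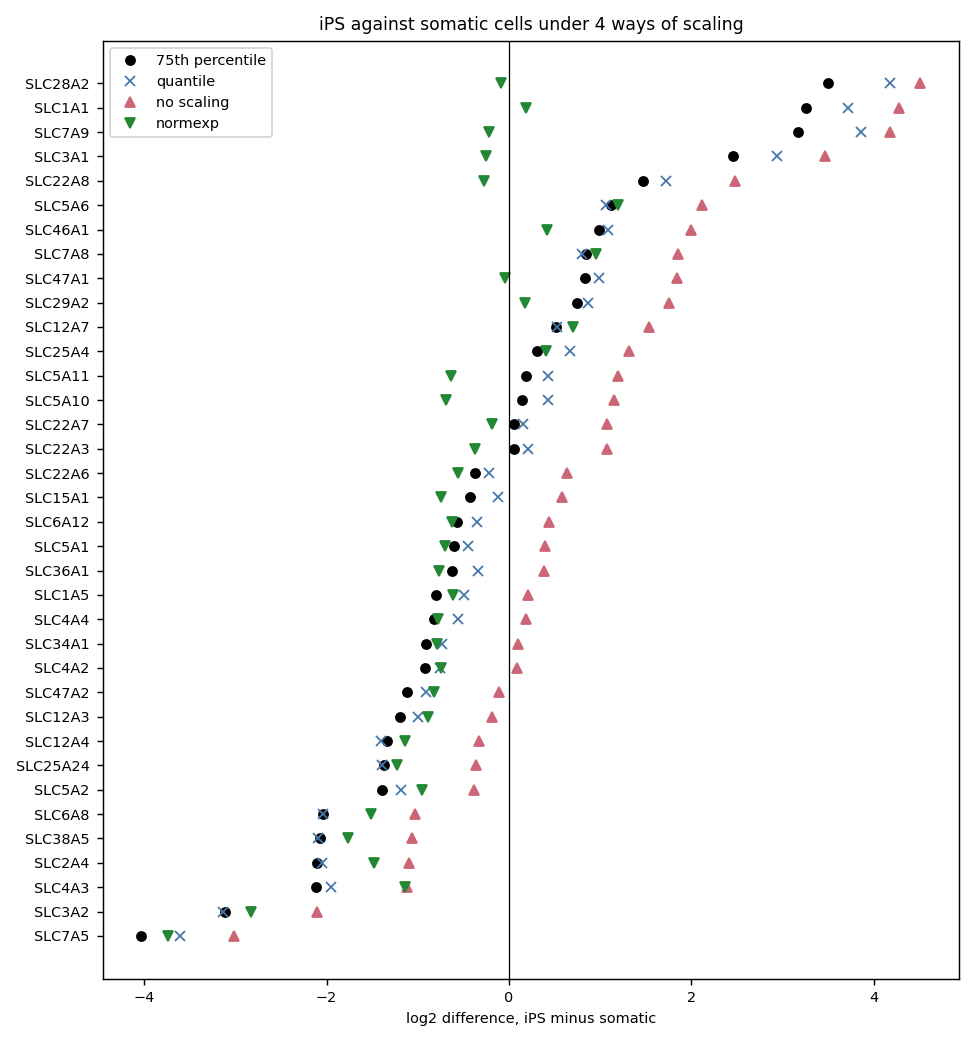
The log2 difference between iPS and somatic cells is plotted for 36 of the 38 genes under the 75th percentile scaling, quantile normalization, no scaling and normexp. SLC7A5 and SLC3A2 lie to the left of 0 under all 4, while SLC28A2, SLC7A9 and SLC3A1 lie to the right under 3 and just left of 0 under normexp.

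Of the 26 genes called in iPS cells, 6 were called in the same direction under every alternative that measured them, and all were lower: SLC7A5, SLC3A2, SLC38A5, SLC6A8, SLC2A4 and SLC4A3. In ES cells the same held for those 6 and, in the higher direction, for SLC46A1 and SLC5A6. The share of all probes that stayed called under every alternative is not given here. These counts and their direction therefore have no background and are no result about solute carriers as a set. Other calls rested on single arrays, as shown by leaving out each array in turn; where 1 somatic culture remained, it was assumed to vary like the other groups. Without liver cells the iPS calls of SLC1A1, SLC29A2, SLC36A1, SLC47A1, SLC47A2 and SLC4A2 were lost, and without stomach cells those of SLC1A5 and SLC47A2. Without an ES or iPS array SLC1A5, SLC36A1 and SLC47A1 lost theirs in iPS cells, and the adjusted p of all these lost calls lay between 0.0506 and 0.152. In ES cells SLC1A1, SLC22A3, SLC34A1, SLC3A1, SLC47A1 and SLC4A2 lost the call without rdES4, SLC34A1, SLC47A1 and SLC4A2 without rdES2-1, and SLC3A1 without an iPS array. Without liver cells SLC1A1, SLC22A3, SLC34A1 and SLC4A2 lost it, and without stomach cells SLC22A3 did, with adjusted p from 0.0509 to 0.149 over these. Without liver cells SLC4A4 and SLC6A12 were newly called lower in iPS cells, and in ES cells SLC12A3, SLC1A5 and SLC22A7 lower and SLC5A10 and SLC5A11 higher.

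Amino acid and peptide carriers were the largest group, with 10 genes, of which 3 were higher and 5 lower in iPS cells and 3 higher and 3 lower in ES cells. Among named genes 22.2% were higher and 45.4% lower in iPS cells, and 21.4% and 42.6% in ES cells. The 3 higher genes were above background on neither somatic array. They passed the filter only through ES or iPS arrays, which favours genes that are higher there. Of those called in iPS cells, SLC3A1 and SLC7A9 changed sign under normexp, and SLC1A5 and SLC36A1 without scaling. SLC7A5 is the light chain of the exchanger that brings leucine and other large neutral amino acids into dividing cells. Its level was 3.97 and 3.87 in the 2 ES lines, 3.81 and 3.87 in the liver and stomach iPS lines at early passage, 3.48 and 3.67 at late passage, and 7.55 and 7.93 in liver and stomach cells. Both somatic cultures stood above all 6 pluripotent arrays, with no overlap. The difference was -4.03 ± 0.17 (SE, 2 iPS lines and 2 somatic cultures) in iPS cells, a 16.4-fold lower signal (adjusted p = 0.000127), and -3.82 in ES cells (adjusted p = 0.000137).

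SLC3A2 is the heavy chain that carries SLC7A5 and several other light chains to the surface. It stood at 0.94 and 0.68 in ES cells, 0.77 and 0.83 in early iPS, 0.56 and 0.57 in late iPS, and 3.69 and 3.90 in liver and stomach cells. Again the somatic cultures lay apart from the pluripotent arrays, which spanned less than 1 log2 unit. SLC3A2 was 8.66-fold lower in iPS cells (-3.11 ± 0.16, adjusted p = 0.000178) and also lower in ES cells (-2.99, adjusted p = 0.000191). SLC38A5, a sodium-coupled carrier of glutamine, serine and other neutral amino acids, was lower too. Its levels were -0.33 and -0.55 in ES cells, -0.39 and -0.67 in early iPS, -0.61 and -0.54 in late iPS, and 1.40 and 1.63 in the somatic cultures. All pluripotent arrays were below 0 and both somatic arrays above it, a difference of -2.07 ± 0.16 in iPS cells (adjusted p = 0.000452) and -1.96 in ES cells (adjusted p = 0.000517).

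SLC7A8, another light chain of SLC3A2, was not called in either comparison. Its level was 4.75 and 3.31 in ES cells, 3.75 and 2.76 in early iPS, 4.20 and 3.10 in late iPS, 1.31 in liver cells and 3.91 in stomach cells. The stomach culture lay inside the pluripotent range and the liver culture below it. The difference was 0.84 ± 1.00 in iPS cells (adjusted p = 0.485) and 1.42 in ES cells (adjusted p = 0.262). With stomach cells left out it was 2.72 in ES cells (adjusted p = 0.037), in a fit that takes the spread of the lone liver culture from the other groups. SLC1A5, a neutral amino acid exchanger that takes up glutamine, was lower in iPS cells by a smaller amount (-0.80 ± 0.27, adjusted p = 0.0463), and its difference in ES cells was -0.65 (adjusted p = 0.0845). Without scaling the iPS value turned to 0.21.

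**Figure D2:**
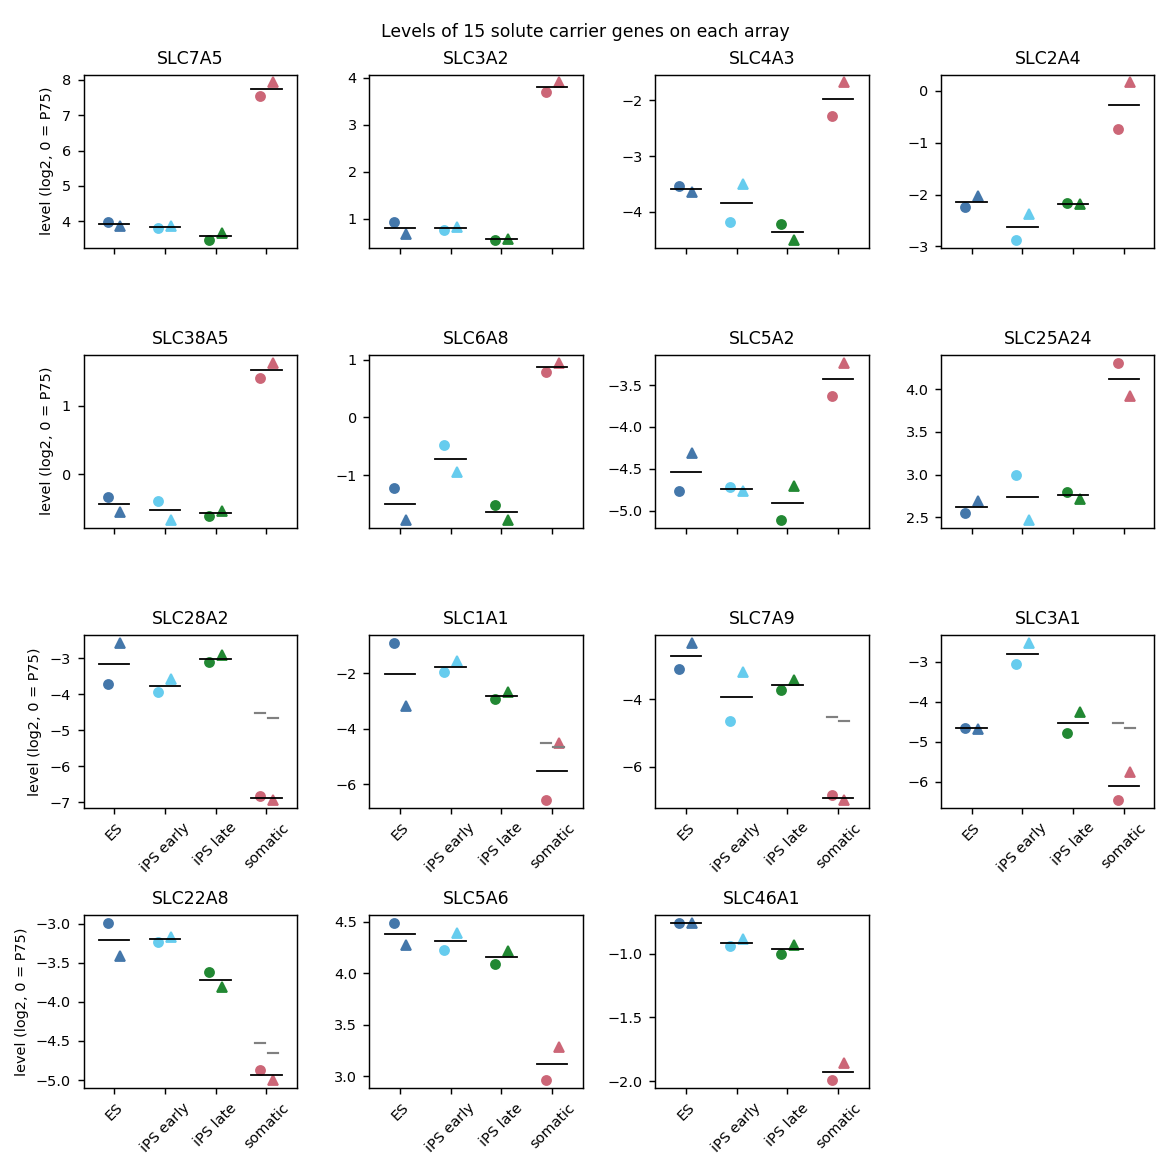
Levels (log2, 0 at the array's 75th percentile) of 15 solute carrier genes are plotted for the 2 arrays of each group; circles are replicate 1 (the liver line or liver cells for iPS and somatic), triangles replicate 2 (stomach), black bars means, and grey ticks the lowest level well above background on each somatic array. For SLC7A5 the somatic points sit at 7.55 and 7.93 and all others at 3.97 or below, while for SLC28A2 both somatic points lie below the grey ticks.

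SLC3A1 and SLC7A9 form another heavy and light chain pair, which takes up cystine and basic amino acids in kidney and gut. SLC3A1 stood at -4.64 and -4.67 in ES cells, -3.06 and -2.52 in early iPS, -4.78 and -4.25 in late iPS, and -6.45 and -5.76 on the somatic arrays, where it was not well above background. The somatic values therefore only bound the fold, which was computed against the higher of the probe's signal and the lowest signal well above background on each array. SLC3A1 was at least 1.92-fold higher in iPS cells (2.46 ± 0.30, adjusted p = 0.00166) and was called higher in ES cells (1.45, adjusted p = 0.0100), where the bound gave no fold. The iPS bound averages both passages. At late passage the liver line lay below the lowest level well above background on the liver cell array, -4.53. The dimmer probes of SLC3A1 gave 1.01 (adjusted p = 0.0471) and 0.53 (adjusted p = 0.557) in iPS cells and 0.72 (adjusted p = 0.12) and -1.07 (adjusted p = 0.259) in ES cells. SLC7A9 stood at -3.10 and -2.31 in ES cells, -4.65 and -3.18 in early iPS, -3.73 and -3.43 in late iPS, and -6.85 and -6.99 on the somatic arrays, neither well above background. All 6 pluripotent arrays were above both. SLC7A9 was at least 1.79-fold higher in iPS cells (3.17 ± 0.39, adjusted p = 0.00177) and at least 3.70-fold higher in ES cells (4.22, adjusted p = 0.000739). This iPS bound is an average as well, and the early liver iPS level of SLC7A9 lay below -4.53. Both genes turned below 0 in iPS cells under normexp, to -0.25 and -0.22, and in ES cells SLC7A9 lost its call there (0.30, adjusted p = 0.137).

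SLC1A1, a carrier of glutamate, aspartate and cysteine, had levels of -0.89 and -3.18 in ES cells, -1.94 and -1.56 in early iPS and -2.94 and -2.66 in late iPS. Its somatic levels of -6.57 in liver and -4.51 in stomach were not well above background, and the ES lines differed from each other by 2.29. The gene was at least 4.73-fold higher in iPS cells (3.26 ± 0.98, adjusted p = 0.0331) and at least 5.58-fold higher in ES cells (3.50, adjusted p = 0.0275). This rests on the brighter of its probes, since the other gave -0.42 and 0.04 and was not called in either comparison. Under normexp the brighter probe gave 0.183 in iPS cells (adjusted p = 0.665) and 0.407 in ES cells (adjusted p = 0.347), and without liver cells the adjusted p was 0.11 and 0.0896. SLC36A1, a proton-coupled carrier of small amino acids, was called lower in iPS cells (-0.62, adjusted p = 0.0475). The probe used was above background on 3 arrays, both of ES cells among them, but on neither somatic array. This call therefore compares signals near background, and no fold was given. The dimmer probe of SLC36A1, above background on 6 arrays, was called lower in iPS cells (-1.26, adjusted p = 0.00177) and in ES cells (-0.89, adjusted p = 0.00586). SLC15A1, the proton-coupled peptide carrier of the gut, was not called on its brightest probe, above background on 3 arrays, nor on another above background on 4. A probe of SLC15A1 above background on 2 arrays was called lower in iPS cells (-0.88, adjusted p = 0.0129) and in ES cells (-1.26, adjusted p = 0.004).

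All 4 carriers of nucleosides and vitamins that passed the filter were higher in both iPS and ES cells. Beside this stand 22.2% and 21.4% of the named genes, and 34.3% and 34.4% of all tested probes. SLC28A2 was above background on neither somatic array, so it passed the filter only through ES or iPS arrays, which favours genes that are higher there. Under normexp SLC28A2 turned to -0.0927 in iPS cells and to 0.0914 in ES cells (adjusted p = 0.556), and SLC29A2 to 0.171 and 0.284 (adjusted p = 0.271 and 0.0925), so both lost the call in both comparisons. SLC28A2 is a sodium-coupled carrier of purine nucleosides. It stood at -3.73 and -2.57 in ES cells, -3.93 and -3.59 in early iPS, -3.12 and -2.92 in late iPS, and -6.84 and -6.94 on the somatic arrays, where it was not well above background. The pluripotent arrays did not overlap with the somatic ones, and the difference was at least 2.30-fold in iPS cells (3.50 ± 0.39, adjusted p = 0.00127) and at least 2.72-fold in ES cells (3.74, adjusted p = 0.00105). SLC29A2, an equilibrative nucleoside carrier measured on every array, was higher by 0.74 in iPS cells (adjusted p = 0.0178) and by 0.96 in ES cells (adjusted p = 0.00778).

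SLC5A6, the sodium-coupled carrier of biotin and pantothenate, was measured at 4.49 and 4.27 in ES cells, 4.23 and 4.39 in early iPS, 4.09 and 4.22 in late iPS, and 2.96 and 3.28 in the somatic cultures. All 6 pluripotent arrays lay above both somatic arrays. SLC5A6 was 2.17-fold higher in iPS cells (1.12 ± 0.18, adjusted p = 0.00395), 1.26 higher on the log2 scale in ES cells (adjusted p = 0.00267), and both of its probes were called. SLC46A1, the proton-coupled folate carrier, stood at -0.76 and -0.76 in ES cells, -0.94 and -0.89 in early iPS, -1.0 and -0.93 in late iPS, and -1.99 and -1.86 in liver and stomach cells. These groups did not overlap either, and the difference was 0.99 ± 0.13 in iPS cells, or 1.98-fold (adjusted p = 0.00195), and 1.17 in ES cells (adjusted p = 0.00114). With the slide as a block the iPS difference rested on the liver line alone. It was then 1.07 for SLC5A6, 0.988 for SLC46A1 and 0.719 for SLC29A2, and these iPS calls were lost.

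Of 8 carriers of inorganic ions and pH, 6 were lower and none higher in iPS cells, and 5 were lower in ES cells, beside 45.4% and 42.6% of the named genes. Without scaling SLC34A1 and SLC4A2 turned above 0 in iPS cells, and SLC12A3 and SLC12A4 lost their iPS calls. SLC4A3, a chloride and bicarbonate exchanger, had the largest difference of the 8. Its levels were -3.53 and -3.64 in ES cells, -4.19 and -3.51 in early iPS, -4.22 and -4.50 in late iPS, and -2.29 and -1.68 in liver and stomach cells. Both somatic arrays were above all others, by 2.12 ± 0.24 for iPS cells (4.36-fold, adjusted p = 0.00124) and by 1.60 for ES cells (adjusted p = 0.00317). SLC4A2, another such exchanger, was lower by a smaller amount in both (-0.92, adjusted p = 0.0162, and -0.90, adjusted p = 0.0182). Without scaling its iPS value was 0.092 and its ES value -0.0245 (adjusted p = 0.929).

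SLC12A4, a potassium and chloride cotransporter that acts in cell volume control, was lower in iPS cells (-1.34, adjusted p = 0.00221) and in ES cells (-0.98, adjusted p = 0.00642). Without scaling these values were -0.329 and -0.108 (adjusted p = 0.168 and 0.632), so both calls were lost. SLC12A3, the sodium and chloride cotransporter of the distal kidney tubule, differed by -1.20 in iPS cells (adjusted p = 0.0066) and by -0.59 in ES cells, where it was not called (adjusted p = 0.0648). Without scaling its iPS value was -0.187 (adjusted p = 0.555). SLC34A1, a sodium and phosphate cotransporter of the kidney, was lower in both (-0.91 and -0.52, adjusted p = 0.00598 and 0.0383), and both values turned above 0 without scaling. SLC12A7, a relative of SLC12A4, stood at 4.61 and 4.61 in ES cells, 4.13 and 4.54 in early iPS, 4.21 and 4.54 in late iPS, 4.87 in liver cells and 2.81 in stomach cells. The liver culture lay above the pluripotent arrays and the stomach culture below them, and SLC12A7 was not called (0.52 in iPS cells, adjusted p = 0.519). With liver cells left out it was higher by 1.55 in iPS cells and by 1.80 in ES cells (adjusted p = 0.00441 and 0.00302), in a fit that takes the spread of the lone stomach culture from the other groups.

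**Figure D3:**
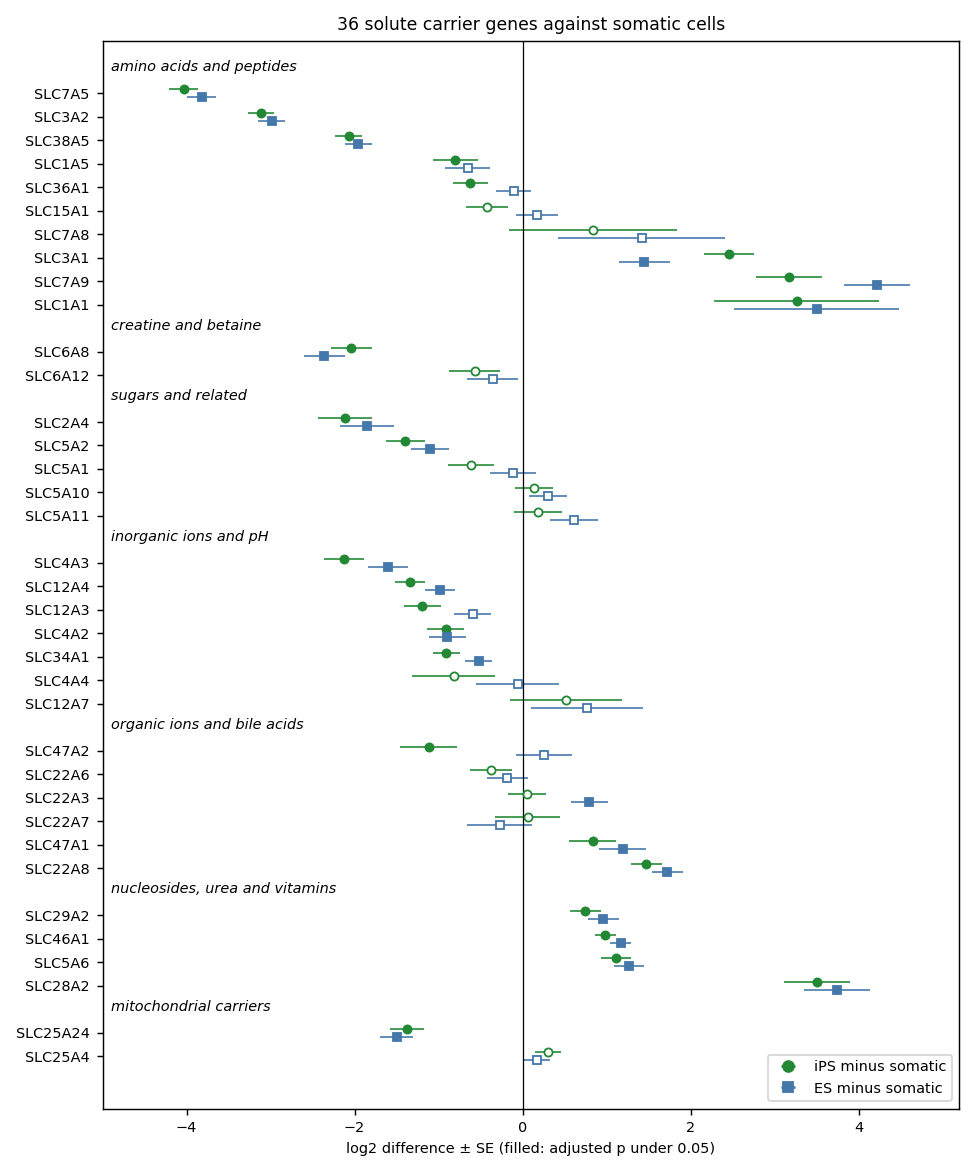
The log2 difference from somatic cells (± SE of the fit) is plotted for 36 of the 38 genes in iPS cells (circles) and ES cells (squares), with filled symbols where the adjusted p was under 0.05. The 2 symbols of a gene lie close to each other over most of the range, which both comparisons share through the somatic arrays, and SLC7A5 is the lowest at -4.03 and -3.82.

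Carriers of sugars and of creatine and betaine were lower or not called. SLC2A4, the glucose carrier that insulin moves to the surface of muscle and fat cells, stood at -2.25 and -2.03 in ES cells, -2.87 and -2.37 in early iPS, -2.17 and -2.18 in late iPS, and -0.73 and 0.16 in liver and stomach cells. Both somatic arrays were above the rest, and SLC2A4 was lower by 2.11 ± 0.32 in iPS cells (adjusted p = 0.00346), with all 5 probes called between -2.25 and -1.98, and -1.85 in ES cells (adjusted p = 0.00557). SLC6A8, the creatine carrier, stood at -1.22 and -1.77 in ES cells, -0.48 and -0.94 in early iPS, -1.51 and -1.77 in late iPS, and 0.78 and 0.95 in the somatic cultures. Its groups did not overlap, and the difference was -2.04 ± 0.24 in iPS cells (adjusted p = 0.00156) and -2.36 in ES cells (adjusted p = 0.00100). SLC5A2, the sodium and glucose cotransporter of the proximal kidney tubule, was at -4.76 and -4.31 in ES cells, -4.72 and -4.77 in early iPS, -5.11 and -4.70 in late iPS, and -3.63 and -3.23 in the somatic cultures, close to the background of the arrays. It was lower by 1.39 in iPS cells (adjusted p = 0.00459) and by 1.1 in ES cells (adjusted p = 0.0106). Without scaling these differences were -0.385 and -0.23 (adjusted p = 0.236 and 0.463), so both calls were lost. SLC5A1, the intestinal counterpart of SLC5A2, SLC5A10, SLC5A11 and SLC6A12, the betaine and GABA carrier, were not called in either comparison.

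Organic ion carriers of liver and kidney included genes on both sides. SLC22A8, an organic anion carrier of the kidney, stood at -2.99 and -3.42 in ES cells, -3.23 and -3.17 in early iPS, -3.62 and -3.81 in late iPS, and -4.87 and -5.0 on the somatic arrays, where it was not well above background. It was at least 2.19-fold higher in iPS cells (1.47 ± 0.19, adjusted p = 0.00185) and at least 2.60-fold higher in ES cells (1.72, adjusted p = 0.00113). Its neighbour in the mOryCun1.1 gene order, SLC22A6, was not called (-0.37, adjusted p = 0.234), and SLC3A2, with 1 gene between it and SLC22A6, was lower.

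SLC47A1 and SLC47A2 export organic cations in exchange for protons and have 2 genes between them in the same gene order. SLC47A1 was higher in iPS cells (0.83, adjusted p = 0.0450), where its levels of -1.64 to -2.65 overlapped with -3.32 and -2.61 in liver and stomach cells, and higher in ES cells (1.19, adjusted p = 0.0150). SLC47A2 was lower in iPS cells (-1.12, adjusted p = 0.0339) and not called in ES cells (0.26, adjusted p = 0.537). Without scaling its iPS value was -0.111 (adjusted p = 0.781). SLC22A3 was higher in ES cells (0.80, adjusted p = 0.0282) and differed by 0.06 in iPS cells (adjusted p = 0.833), on a probe above background on all 8 arrays. Its dimmer probes, 2 in number, were called higher in both. Their somatic levels of -6.84 to -6.06 lay below the lowest level well above background there. Under normexp SLC22A3 was -0.372 in iPS cells (adjusted p = 0.0235) and -0.00186 in ES cells (adjusted p = 0.989). SLC22A7 was not called. Among mitochondrial carriers, SLC25A24, which exchanges ATP-magnesium for phosphate, stood at 2.55 and 2.69 in ES cells, 3.0 and 2.47 in early iPS, 2.80 and 2.71 in late iPS, and 4.31 and 3.92 in the somatic cultures. The groups did not overlap, and all 4 probes were lower in iPS cells, the brightest by 1.37 (adjusted p = 0.00297), and in ES cells (-1.5, adjusted p = 0.00225). Without scaling the brightest gave -0.364 and -0.628 (adjusted p = 0.274 and 0.0827), so both calls were lost. SLC25A4, the adenine nucleotide carrier, was not called (0.30, adjusted p = 0.139). This depends on scaling. In iPS cells limma gave 0.67 under quantile normalization (adjusted p = 0.0136), 1.31 without scaling (adjusted p = 0.00198) and 0.404 under normexp (adjusted p = 0.0387). In ES cells it was also called higher under quantile normalization (0.53, adjusted p = 0.0298) and without scaling (1.05, adjusted p = 0.00531).

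**Figure D4:**
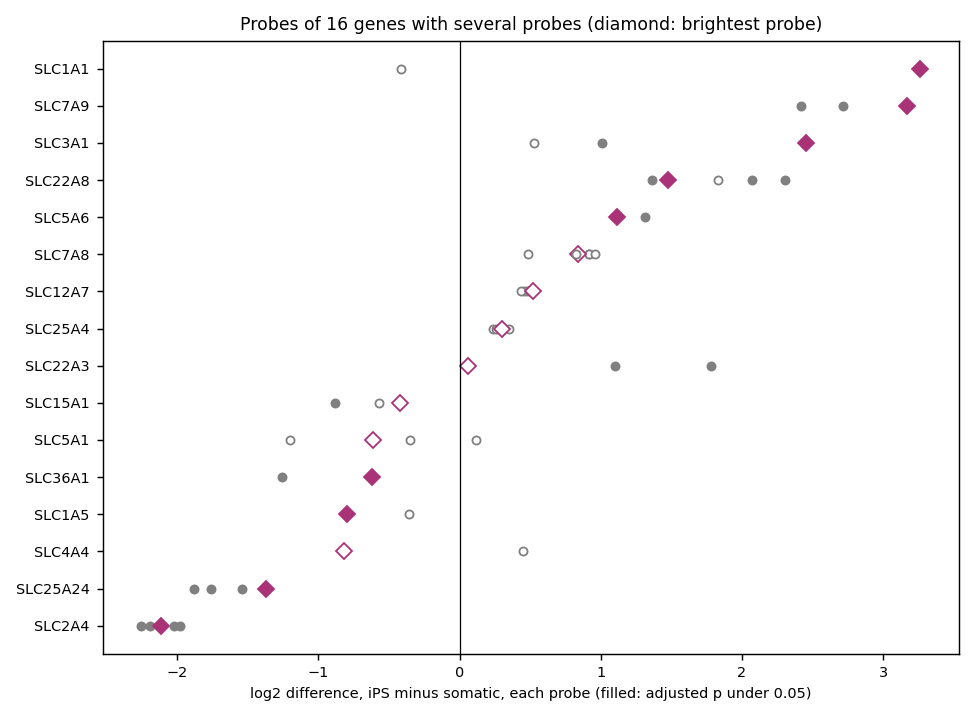
Each point is the log2 difference between iPS and somatic cells of 1 probe, for 16 genes with several passing probes; diamonds mark the brightest probe, filled symbols an adjusted p under 0.05. Of the 9 genes plotted that were called, 8 have every probe on the same side of 0, and none has a probe called in the opposite direction.

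Among the ES and iPS cells no solute carrier was called. In iPS against ES cells 0 of 38 genes passed (limma, 5 at an unadjusted p under 0.05), as did 0% of all probes. The share of all probes at that unadjusted threshold is not given here or below. The unadjusted counts therefore have no background and are no sign of a difference in solute carriers. The largest differences were -1.37 ± 0.34 for SLC47A2 (adjusted p = 0.515), -1.05 for SLC7A9 (adjusted p = 0.661) and 1.00 for SLC3A1 (adjusted p = 0.581). In late against early iPS cells 0 of 38 passed (5 unadjusted) where 0.0277% of all probes were called. SLC3A1 stood at -3.06 and then -4.78 in the liver line and at -2.52 and then -4.25 in the stomach line, and the difference of -1.73 ± 0.31 was not called (adjusted p = 0.342, and 0.207 with the line as a replicate block). The early iPS level of SLC3A1 lay above both ES lines by 1.87 (adjusted p = 0.191), and its late level differed from them by 0.14. SLC6A8 had lower values at late passage in both lines (-0.93 ± 0.25, adjusted p = 0.496).

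Against ES cells, early iPS cells gave 0 calls of 38 (5 unadjusted) where 0.0416% of all probes were called, and late iPS cells gave 0 (10 unadjusted) where 0.0208% were called. The smallest adjusted p of a solute carrier was 0.191 at early and 0.363 at late passage. No gene was called for a difference between the lines in their passage change (limma interaction, 0 of 38 and 0 of 28844 probes, with 1 gene at an unadjusted p under 0.05). The unadjusted counts again have no share of all probes beside them. A p above the threshold does not show that levels were alike.

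**Figure D5:**
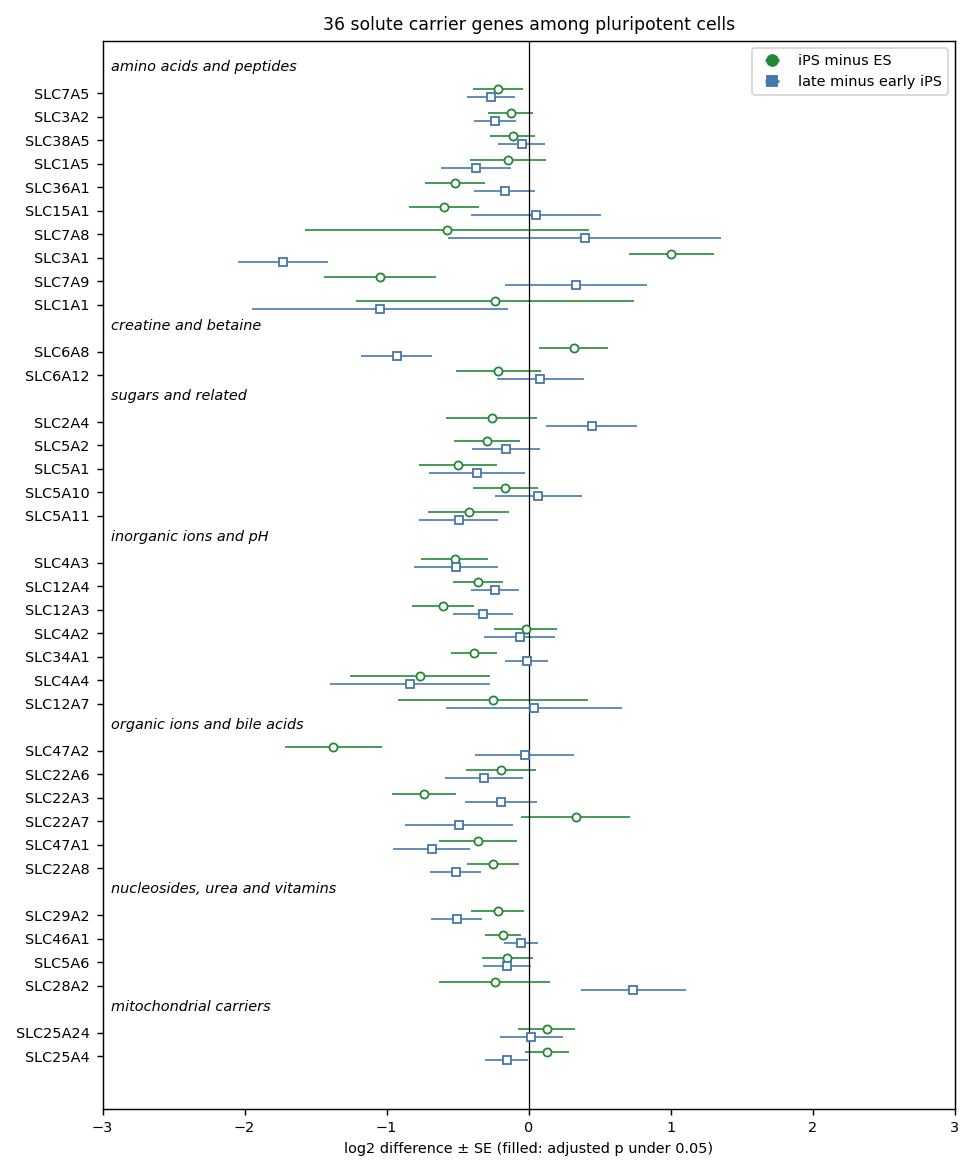
The log2 difference (± SE) of 36 of the 38 genes is plotted for iPS against ES cells and for late against early iPS cells, with no filled symbol because none had an adjusted p under 0.05. SLC47A2 at -1.37 for iPS against ES cells and SLC3A1 at -1.73 for late against early iPS cells lie farthest from 0.

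Liver and stomach cells were 1 culture each, so their differences have no test. The median absolute difference between them was 0.369 over the 38 genes and 0.253 over all tested probes, and 5 genes differed at least 2-fold, among them SLC1A1, which was not well above background on either array and so has no measured difference. SLC7A8 was 2.60 lower in liver than in stomach cells on its brightest probe and -2.79 to -2.60 over its 5 probes above background in both. SLC12A7 was 2.06 higher in liver cells, with 5 probes between 1.97 and 2.14. SLC4A4, a sodium and bicarbonate cotransporter, stood at -5.19 in liver cells, not well above background, and -3.85 in stomach cells, at -4.22 and -4.94 in ES cells, -4.51 and -5.33 in early iPS and -6.19 and -5.33 in late iPS. SLC4A4 was well above background on 4 arrays and was not called, and SLC22A7 differed by -1.07 between liver and stomach cells. In ES cells the median absolute difference between the lines was 0.255, with SLC1A1 (2.29), SLC7A8 (1.44) and SLC28A2 (-1.16) at least 2-fold apart.

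The 11 genes that did not pass were described by detection only. SLC10A1 and SLC10A2, the bile acid carriers of liver and ileum, SLC14A2, SLC22A2, SLC26A5, SLC6A19 and SLC9A3 were above background on no array. SLC15A2, SLC17A1 and SLC26A3 were above background on a single iPS array each, and SLC4A9 on the liver cell array.

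Proteins that pair with, anchor or drive solute carriers were listed apart: 18 of 48 listed genes were named on the array and 14 were tested, of which 5 were higher and 4 lower in iPS and in ES cells, a share close to the 67.6% and 64.0% of named genes called. PDZK1, a scaffold that holds carriers at the membrane, was 5.89 ± 0.20 higher in iPS cells (adjusted p = 9.18e-05); its levels were -4.06 and -4.57 in liver and stomach cells, above background in 1 of them, and 1.5 to 1.72 in iPS cells. BSG, the chaperone of monocarboxylate carriers, was lower by 2.93 ± 0.15 (adjusted p = 0.000182), at 2.59 to 3.26 in iPS cells and 5.76 and 5.93 in somatic cells. ATP1B1, ATP1B3 (subunits of the sodium pump), ATP4A and CA4, which was not above background in somatic cells, were the other higher genes. NHERF2, SGK1 and NR1H4, which was not above background in pluripotent cells, were the other lower ones. None of the 14 was called between iPS and ES cells or between passages.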

How the data were processed

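Total RNA of 8 Dutch rabbit cultures was labelled with Cy3 and read with Agilent Feature Extraction 10.5.1.1, per the file headers; a genome build was not given in the sources used here. The deposited signal is a linear intensity, background-subtracted per the file headers. From it log2 levels were computed, scaled to each array's 75th percentile over 43603 probes that are not controls. The deposited value table of the authors holds log2 values, which followed each probe's level minus its own median over 8 arrays (r of 0.9999 or more). Their per-array medians ran from -0.0416 to 0.3423, and whether 1 scale was applied to all arrays beyond this is not stated. Probes with an outlier flag (38) were left out, and a probe was tested if well above background on both arrays of a group (28844 probes). Gene symbols came from RefSeq accessions matched to mOryCun1.1, which named 1933 probes.

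limma 3.58.1 (R 4.3.3) was run two-sided with Benjamini-Hochberg adjustment at 0.05. iPS, ES and somatic cells were compared over 6 units, with early and late arrays of a line averaged. Passages were compared over 8 arrays in 4 groups. Early and late arrays with the same number are the same line (correlation of deviations 0.224), so the line was also fitted as a block, and this changed no call among the solute carriers. The brightest probe stood for a gene; values on every array were given for the 8 largest rises and 8 largest falls without overlap and the 4 largest differences between liver and stomach cells. Counts cover all 38 genes, of which 2 are not reported here by name or in plots. The fit was tested on simulated data. The members and lists were chosen with earlier results of these data known. The number of arrays limits the precision. Alternatives changed scaling, background correction, dim-probe filter, value table, slide block, the probe that stands for a gene, and left out each array.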

Additional observations from a re-analysis of the deposited data

Results flagged for a closer look

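Probes of 3 solute carriers outside the tested set were above background on a single pluripotent array and on neither somatic array. SLC15A2 (probe A_04_P000707) reached -4.86 on the early stomach iPS array, SLC17A1 (probe A_04_P000253) -5.19 on the late liver iPS array, and SLC26A3 (probe A_04_P000773) -5.26 on the early liver iPS array. None was repeated on the other array of its group.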

How the results depend on the processing

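Without scaling between arrays 6 solute carriers were lower in iPS than in somatic cells, and in ES cells 17 were higher and 6 lower. Under normexp, run on the median signal because the files hold no mean signal and so chosen after seeing the data, the counts were 3 higher and 25 lower in iPS cells and 2 higher and 23 lower in ES cells. With probes above background on all arrays 4 were higher in iPS and 5 in ES cells. The stomach iPS line was alone on its slide, so the slide block left the iPS comparison to the liver line. With the slide as a block 15 were called in iPS cells, 5 higher and 10 lower. Leaving out each array in turn gave 23 to 26 calls in iPS cells (8 to 10 higher, 14 to 17 lower) and 18 to 25 in ES cells (7 to 12 higher, 10 to 13 lower), with the lowest count of higher genes, 7, without the ES line rdES4. The cause of these shifts was not tested. The share of all probes called under each setting is not given beside these counts, so they have no background. All other comparisons stayed at 0 calls under every setting run.

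Without scaling, iPS differences reversed for SLC1A5 (0.21), SLC34A1 (0.10), SLC36A1 (0.39) and SLC4A2 (0.092), and ES differences for SLC34A1 (0.35) and SLC36A1 (0.77). Among the genes named here, others kept their sign but lost the call there. In iPS cells these were SLC12A3 (-0.187), SLC12A4 (-0.329), SLC25A24 (-0.364), SLC47A2 (-0.111) and SLC5A2 (-0.385). In ES cells they were SLC12A4 (-0.108), SLC25A24 (-0.628), SLC4A2 (-0.0245) and SLC5A2 (-0.23). Under normexp, iPS differences reversed for SLC22A3 (-0.37), SLC22A8 (-0.27), SLC28A2 (-0.0927), SLC3A1 (-0.25), SLC47A1 (-0.044), SLC5A10 (-0.69), SLC5A11 (-0.63) and SLC7A9 (-0.22). ES differences reversed there for SLC15A1 (-0.55), SLC22A3 (-0.00186), SLC22A8 (-0.0782), SLC3A1 (-0.47), SLC47A2 (-0.46), SLC5A10 (-0.56) and SLC5A11 (-0.46). With the dimmest probe, SLC1A1 gave -0.42 in iPS cells, and SLC15A1 and SLC4A4 gave -1.26 and 1.90 in ES cells.

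The labels say that the iPS lines were generated from liver or stomach cells, but not whether from the cultures measured here. The correlation of deviations between iPS and somatic arrays, 0.0214 and 0.0131 for early and late passage, cannot tell. With origin as a replicate block 21 genes were called between iPS and somatic cells, 9 higher and 12 lower, with no share of all probes beside them. With the line as a replicate block 0 genes were called between passages. Of 19 settings, 8 left out an array. Signal near background limits the 13 genes not detected on all arrays.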
